A study of Apis mellifera with 6 samples.

Results

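*Arp1*, *Nedd9* and *Calpb* were 3 of the 10041 genes with a value in the midgut RNA sequencing of honey bees (*Apis mellifera*) fed halofuginone. They were selected on these same values, because each was lower in all 3 halofuginone libraries than in all 3 control libraries, and because their symbols name an actin-type protein, an adhesion scaffold and a calpain. All 3 were found in every library. Their levels are therefore given as a description, and no test of their difference between the groups is reported.

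The tested bees had fed for 24 h on sucrose solution with 200 µM halofuginone in 0.5% DMSO (libraries Halofuginone 2, 3 and 4), and the control bees for the same time on sucrose solution with 0.5% DMSO alone (Control 1, 2 and 3). Halofuginone blocks prolyl-tRNA synthetase and was given as a trigger of the Integrated Stress Response, which slows general translation when tRNAs are left uncharged. The bees were adults of mixed subspecies taken at the landing board of outbred hives, with 1 colony an experiment and no genotype given, and each library came from the midgut of 1 bee. Recovered reads per library were between 23305398 and 26278866, so that library size varied little.

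The actin cytoskeleton gives the enterocytes of the midgut their apical brush border and links each cell, through adhesion complexes, to the basement membrane and the visceral muscle around it. Proteins of the Cas family, to which mammalian NEDD9 belongs, are docking proteins at such adhesions, where they carry signals from focal adhesion kinase and Src kinases. Calpains are calcium-dependent cysteine proteases that, in vertebrates, cut cytoskeletal and adhesion proteins such as talin and spectrin. The symbol *Arp1* stands for actin-related protein 1, which in other animals is the actin-like subunit of the dynactin complex. The files pair no protein sequence with this symbol, so whether the bee gene encodes that subunit or a conventional actin was not determined.

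All values below are normalised read counts, that is, the reads counted for a gene divided by 1 size factor per library. They depend on transcript length, so levels were not compared between genes other than by rank.

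*Arp1* stood at 21597, 19623 and 28775 normalised counts in Halofuginone 2, 3 and 4, against 56126, 40662 and 43333 in Control 1, 2 and 3. The groups did not overlap, and Halofuginone 4 was the treated library nearest to the controls. The means were 23332 ± 4816 in halofuginone-fed bees and 46707 ± 8266 in control bees (SD, n = 3 each), which left 49.95% of the control mean. The log2 fold change was −1.01 ± 0.21 (SE). By mean normalised count *Arp1* ranked 63rd of the 10041 genes, a rank that transcript length also affects. Whether that level is of a conventional actin or of the dynactin subunit was not tested.

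*Nedd9* had 1422, 1281 and 1211 normalised counts in Halofuginone 2, 3 and 4, against 2708, 2153 and 2799 in Control 1, 2 and 3. Here the treated libraries lay close together, and Control 2 was the lowest control. The means were 1305 ± 107 in halofuginone-fed bees and 2553 ± 350 in control bees (SD, n = 3 each), or 51.1% of the control mean. The log2 fold change was −0.96 ± 0.14 (SE), the smallest of the 3 genes in size.

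*Calpb*, the calpain gene, had 1425, 1522 and 1313 normalised counts in Halofuginone 2, 3 and 4, against 3844, 3236 and 2581 in Control 1, 2 and 3. The controls were spread more widely than the treated libraries, with Control 3 the nearest to them. The means were 1420 ± 105 in halofuginone-fed bees and 3220 ± 632 in control bees (SD, n = 3 each), or 44.1% of the control mean. Its log2 fold change of −1.16 ± 0.16 (SE) was the largest of the 3 in size.

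**Figure D1:**
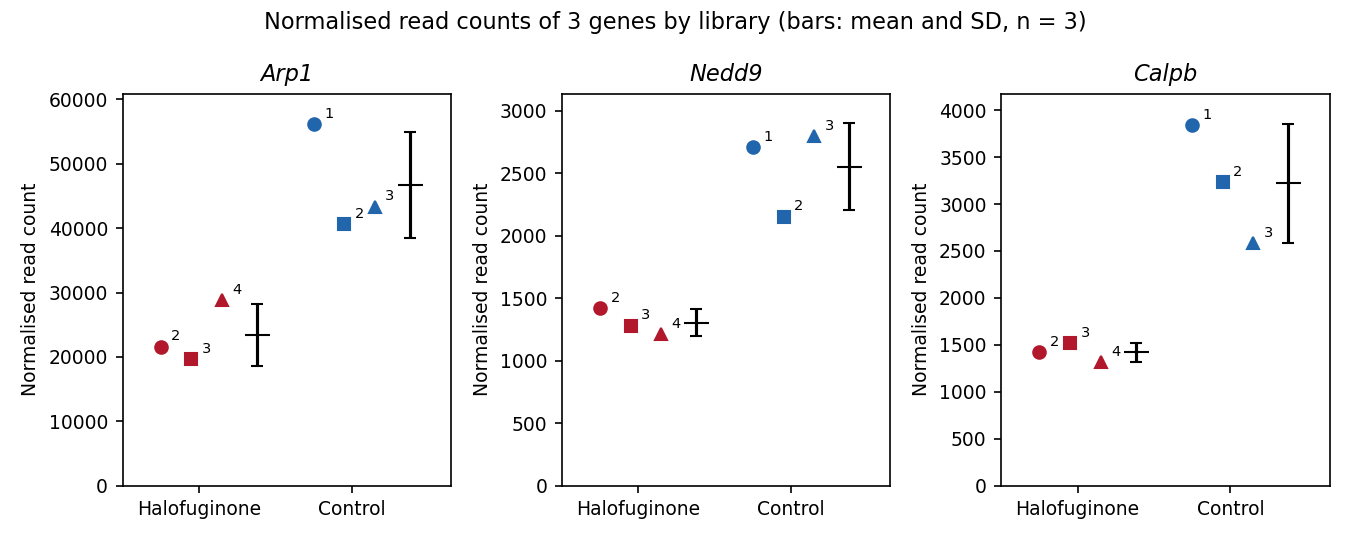
Normalised read counts (vertical axes, from 0) of *Arp1*, *Nedd9* and *Calpb* in each library, with halofuginone (red) left of control (blue), numbers giving the library and black bars the mean and SD. In each panel the highest treated library lies below the lowest control library, at 70.8%, 66.1% and 59.0% of it for *Arp1*, *Nedd9* and *Calpb*.

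The distance between the groups can be read from the libraries nearest to each other. The highest halofuginone value was 70.8% of the lowest control value for *Arp1*, 66.1% for *Nedd9* and 59.0% for *Calpb*. Under 3 other scalings, by TMM, by upper quartile and by library total, the groups of each gene still did not overlap. Over the 4 scalings this share ran from 67.0% to 70.8% for *Arp1*, from 65.1% to 72.9% for *Nedd9* and from 56.8% to 69.5% for *Calpb*. Non-overlap of this kind was common in these libraries. Of all 10041 genes, 1474 (14.7%) were lower in every halofuginone library than in every control library, and 887 were under library-total scaling. Of the 263 genes with a symbol other than a locus, microRNA or tRNA name, 43 (16.3%) were. The median log2 fold change of the 1474 genes was −0.50, and 166 of them had a larger fall than *Arp1*, 180 than *Nedd9* and 119 than *Calpb*. Among related symbols, *PRF* (profilin) and *rtGEF* also met this part of the rule. *rtGEF* did so narrowly, with a highest halofuginone value of 906 and a lowest control value of 916. *arm*, which encodes the adherens junction protein armadillo, did not meet it, with 2407 as its highest halofuginone value and 2274 as its lowest control value. In the other direction, 1596 of the 10041 genes were higher in every halofuginone library than in every control library. Of the related symbols the kinase gene *ROCK2* was so, narrowly, with 830 as its lowest halofuginone value and 825 as its highest control value.

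The spread between bees differed among the 3 genes. For *Arp1* the coefficient of variation was 20.6% in halofuginone-fed bees and 17.7% in controls. It was 8.23% in halofuginone-fed bees and 13.7% in controls for *Nedd9*, and 7.38% in halofuginone-fed bees and 19.6% in controls for *Calpb*. Counting error was small beside this spread, since the fewest reads in any library were 22127 for *Arp1*, 1123 for *Nedd9* and 1217 for *Calpb*. Those counts carry a Poisson error of 0.672%, 2.98% and 2.87%. On the log2 scale the pooled within-group SD was 0.27 for *Arp1*, 0.17 for *Nedd9* and 0.22 for *Calpb*. The median over the 500 genes nearest in mean normalised count was 0.23 for *Arp1*, 0.18 for *Nedd9* and 0.18 for *Calpb*, so none of the 3 stood far from genes with similar counts. Expressed in its own within-group SD, the fall was 3.76 for *Arp1*, 5.73 for *Nedd9* and 5.36 for *Calpb*. A large value here comes with the choice of genes whose groups did not overlap, so it is a description and not a test.

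It was next asked whether the 3 genes varied together from bee to bee within a group. Control 1 was the one library of 6 in which all 3 genes lay on the same side of their group mean. There *Arp1* was 0.28, *Nedd9* 0.09 and *Calpb* 0.27 log2 units above the control mean. In the other 5 libraries the 3 genes did not all share a side, though some deviations were near 0. *Calpb* was at 0.01 in Halofuginone 2 and *Nedd9* at −0.02 in Halofuginone 3. Control 2 held the lowest *Arp1* and the lowest *Nedd9* of the controls, at −0.19 and −0.24, with *Calpb* at 0.03. Halofuginone 4 held the highest *Arp1* of the treated libraries, 0.32 above their log2 mean, and the lowest *Nedd9* and *Calpb*, at −0.10 and −0.11. Halofuginone 3 held the lowest *Arp1*, at −0.23, and the highest *Calpb*, at 0.10. In Control 3, *Nedd9* was at 0.14 and *Calpb* at −0.30. With 3 bees a group, a correlation within groups could not be tested, and one over all 6 libraries would mostly restate the rule that chose the genes.

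**Figure D2:**
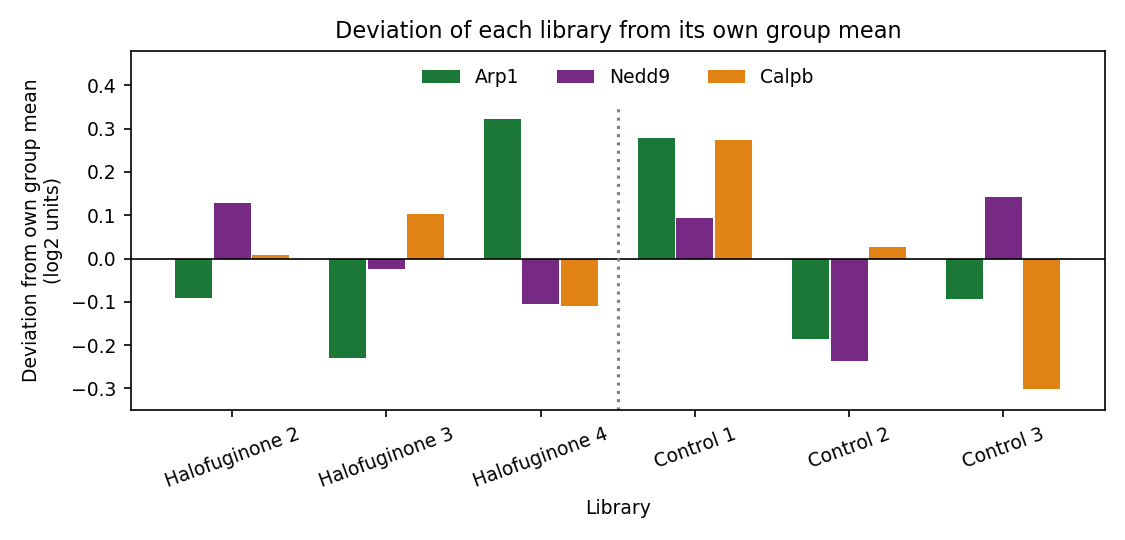
Deviation of each library from the mean of its own group in log2(normalised count + 1) (vertical axis) for *Arp1*, *Nedd9* and *Calpb*, halofuginone libraries left of the dotted line and controls right of it. Only in Control 1 do all 3 bars point the same way (0.28, 0.09 and 0.27), whereas in Halofuginone 4 *Arp1* is at 0.32 and the other genes are at −0.10 and −0.11.

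Ratios between the genes, which are free of the scaling between libraries, set the falls beside each other library by library. Their log2 differences between the groups restate the fold changes above, for genes all chosen for a fall. *Nedd9* gave 6.58, 6.53 and 4.21 reads per 100 *Arp1* reads in Halofuginone 2, 3 and 4, against 4.83, 5.29 and 6.46 in Control 1, 2 and 3. The groups overlapped widely, with a log2 difference of 0.04 between their means. *Calpb* gave 6.60, 7.76 and 4.56 reads per 100 *Arp1* reads in Halofuginone 2, 3 and 4, against 6.85, 7.96 and 5.96 in Control 1, 2 and 3, a log2 difference of −0.16. These groups overlapped too. *Calpb* reads per *Nedd9* read were 1.00, 1.19 and 1.08 in Halofuginone 2, 3 and 4, against 1.419, 1.503 and 0.922 in Control 1, 2 and 3. Control 3 thus fell below every treated library in this ratio, whereas Control 1 and 2 lay above them. The log2 difference of this ratio was −0.20, the largest of the 3 ratios in size.

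Each deposited table holds 1 halofuginone and 1 control library, and no label says that the bees of a table were matched. Over 7477 genes their deviations from the group means correlated at −0.216 for Halofuginone 2 and Control 1. The correlation was −0.155 for Halofuginone 3 and Control 2 and −0.0856 for Halofuginone 4 and Control 3. The tables were therefore not taken to pair the bees. Within these tables *Arp1* was at 38.5% of control in Halofuginone 2 over Control 1, at 48.3% in Halofuginone 3 over Control 2 and at 66.4% in Halofuginone 4 over Control 3. *Calpb* was at 37.1%, 47.0% and 50.9% in the same order. *Nedd9* did not follow that order and was at 52.5%, 59.5% and 43.3%. Over all 9 combinations of a treated with a control library, the log2 difference ran from −1.52 to −0.50 for *Arp1*, from −1.21 to −0.60 for *Nedd9* and from −1.55 to −0.76 for *Calpb*.

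Genes with a similar profile were then looked for among the 7477 genes with a mean of at least 100 normalised counts. Likeness was the root mean square difference, over the 6 libraries, between log2(normalised count + 1) profiles centred on each gene's mean. The 3 chosen genes were not each other's nearest profiles. *Nedd9* was 0.248 from *Arp1* and ranked 77th of 7476 there, and *Calpb* was 0.269 from *Arp1* and ranked 117th. Seen from *Nedd9*, *Calpb* was 0.255 away and ranked 161st. Ranks were closer seen from *Calpb*, with *Nedd9* 42nd and *Arp1* 57th. The distance includes the group difference on which the 3 genes were chosen. The nearest to *Arp1* were LOC409329 at 0.0974, LOC551891 at 0.105 and LOC412149 at 0.115. In these, as in *Arp1*, Halofuginone 4 was the highest treated library and Control 1 the highest control. Such a likeness comes with the choice, which was made on the same 6 values. LOC409329, for example, had 5017, 5268 and 7696 normalised counts in Halofuginone 2, 3 and 4, against 13366, 10896 and 10078 in Control 1, 2 and 3. Nearest to *Nedd9* were LOC411699 at 0.104, LOC100578602 at 0.119 and LOC410953 at 0.121. Nearest to *Calpb* were LOC100578606 at 0.140, LOC726949 at 0.140 and LOC552301 at 0.149. The last had 28676, 41017 and 30580 normalised counts in Halofuginone 2, 3 and 4, against 84277, 84664 and 65593 in Control 1, 2 and 3. All 9 carry locus names without a description in the files used here.

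**Figure D3:**
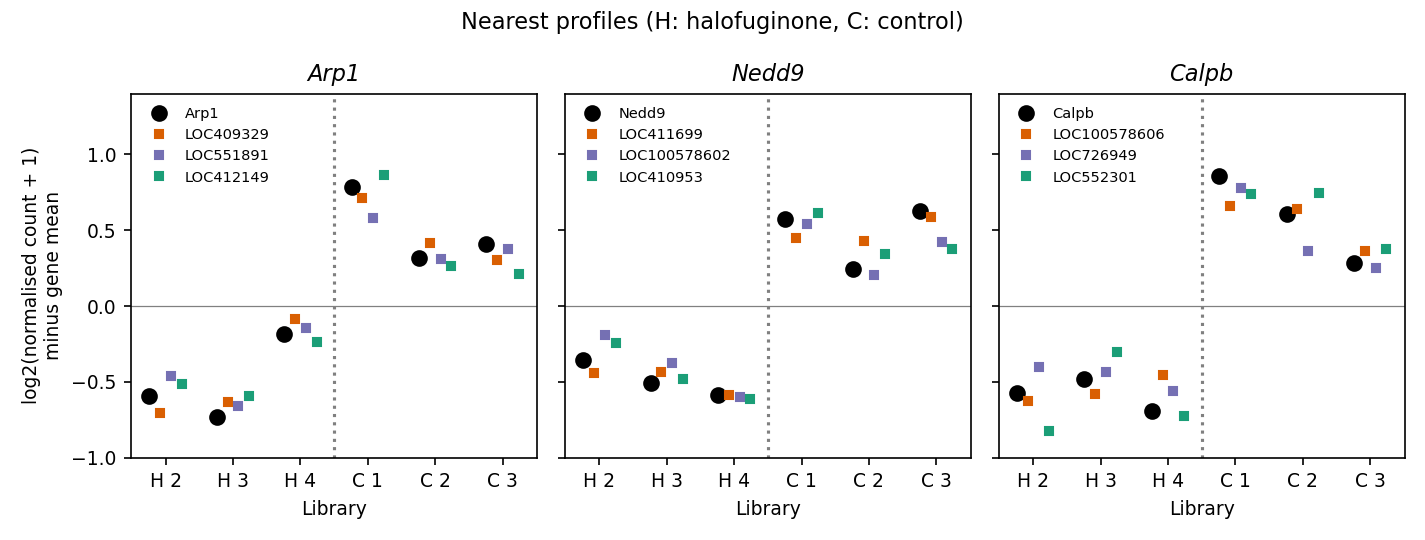
Profiles of *Arp1*, *Nedd9* and *Calpb* (black circles) and of the 3 genes nearest to each (coloured squares), as log2(normalised count + 1) minus the gene's mean (vertical axis), by library (H: halofuginone, C: control). The genes nearest to *Arp1* share its high Halofuginone 4 and Control 1, and the 3 panels differ in the order of libraries within a group.

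Genes named for related functions were compared between the groups with limma, in a fit over all 10041 genes. An adjusted p (Benjamini-Hochberg over all genes) under 0.05 was passed by 226 genes that were lower after halofuginone (2.25%) and by 465 that were higher (4.63%), and 70 of the lower ones (0.697%) also had a log2 fold change under −1. Only 263 of the 10041 genes carry a symbol other than a locus, microRNA or tRNA name. A symbol that was not found can therefore belong to a gene under a locus name, and the genes found cannot stand for all actin and adhesion genes. Of 56 symbols of actin regulators searched, 1 was found, *PRF*, which the gene table lists under the synonym *chic*. No symbol other than *Calpb* in the files begins with Calp or Capn, and the calpain-like symbol *sol* was not found. Of 55 adhesion symbols searched, *arm* and *Dscam* were found. A further 8 cytoskeleton and adhesion symbols were added once the symbols in the files were known. Together these 11 genes had a median log2 fold change of 0.08, against −0.01 over all genes, with 5 below and 6 above 0. None of the 11 passed the adjusted p in limma or edgeR, 1 (*PRF*) did in DESeq2, and 2 (*PRF* and *uzip*) had an unadjusted p under 0.05 in limma.

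*PRF* encodes profilin, which binds actin monomers and feeds them to growing filaments. It had 20028, 18337 and 28023 normalised counts in Halofuginone 2, 3 and 4, against 30572, 36510 and 34289 in Control 1, 2 and 3. The groups did not overlap, and among the treated libraries the order was that of *Arp1*, with Halofuginone 4 the highest and Halofuginone 3 the lowest, whereas among controls Control 1 was the lowest in *PRF* and the highest in *Arp1*. On the log2 scale *PRF* stood at −0.63 ± 0.20 (SE, adjusted p = 0.111 by limma), and over the alternatives its adjusted p ranged from 0.0269 in DESeq2 to 0.286 in limma without Control 2.

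*arm* had 2111, 2407 and 2208 normalised counts in Halofuginone 2, 3 and 4, against 2564, 2274 and 2482 in Control 1, 2 and 3, and the groups overlapped. On the log2 scale *arm* was at −0.12 ± 0.11 (SE, adjusted p = 0.542 by limma). *Dscam*, which encodes a cell adhesion receptor of the immunoglobulin superfamily, was at 0.08 ± 0.13 (SE, adjusted p = 0.747 by limma). The most abundant of the added symbols were *Tspan6*, a tetraspanin gene, at 0.12 ± 0.17 (SE, adjusted p = 0.728 by limma), and *EphR*, the Eph receptor gene, at 0.50 ± 0.34 (SE, adjusted p = 0.422 by limma). Neither separated the groups. The other added symbols named here were singled out after their values were seen. *ROCK2*, a kinase that acts on actomyosin, had 855, 983 and 830 normalised counts in Halofuginone 2, 3 and 4, against 790, 746 and 825 in Control 1, 2 and 3. The log2 fold change of *ROCK2* was 0.17 ± 0.12 (SE), and it did not pass the test (limma adjusted p = 0.420). *rtGEF*, a guanine nucleotide exchange factor gene, lay below the controls in every treated library but by little, standing at −0.22 ± 0.13 (SE, adjusted p = 0.358 by limma). Among these 11 genes the lowest log2 fold change was that of the neurexin gene *Nrx-1*, at −0.91 with an SE of 0.89, where the halofuginone libraries held 16.6 to 173 normalised counts and the controls 65.1 to 271.

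**Figure D4:**
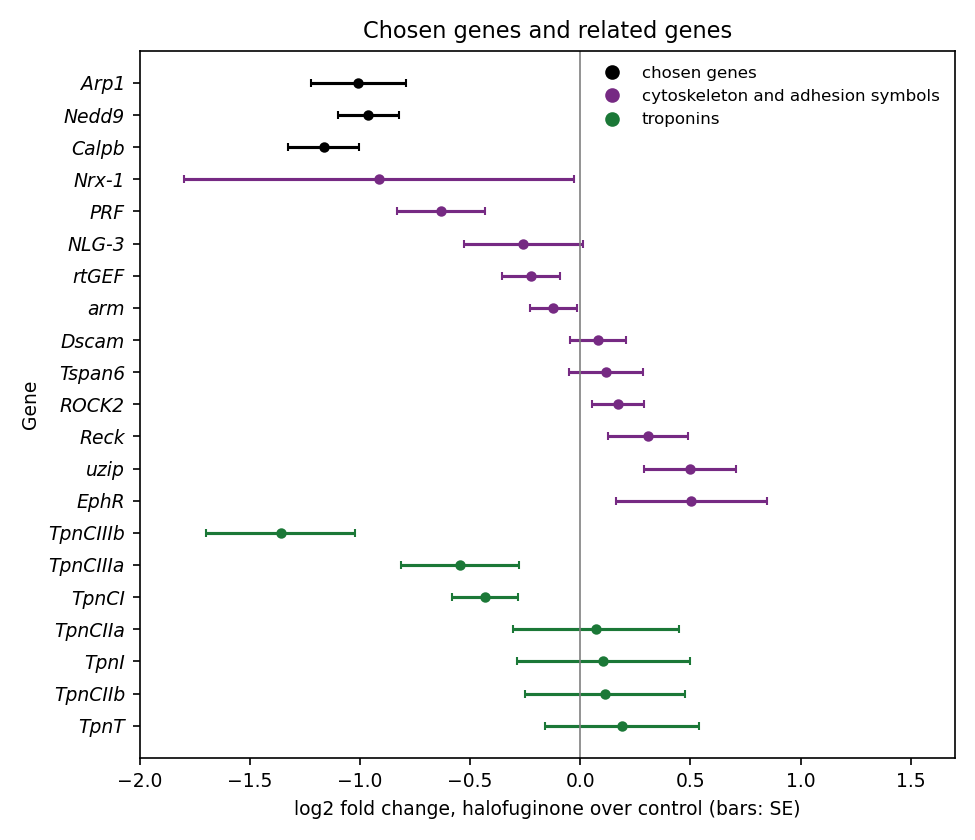
Log2 fold change, halofuginone over control (horizontal axis), with its SE for the 3 chosen genes (black), 11 cytoskeleton and adhesion symbols (purple) and 7 troponins (green), one gene a row. The chosen genes lie between −1.16 and −0.96, and the 11 purple genes lie between −0.91 and 0.50 on both sides of 0.

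Because bulk tissue was sequenced, fewer cells of one type and less RNA per cell cannot be told apart. Markers of other cell types in the dissected midgut were therefore set beside the 3 genes. The troponins, calcium switches of striated muscle contraction, mark the visceral muscle, whose thin filaments hold actin. The summed level of the 7 troponin genes was 4750 to 8532 normalised counts in halofuginone libraries and 5340 to 8916 in controls, and these ranges overlapped (exact two-sided permutation test, p = 0.7, with 0.1 the smallest that 3 against 3 allow). Halofuginone 4, with the highest *Arp1* of the treated libraries, also had their highest troponin sum. Among controls it was the reverse, since Control 1 had the highest *Arp1* and the lowest sum. The part of muscle in the *Arp1* values was not tested.

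None of the 7 troponins passed the adjusted p in limma with the variance trend or in edgeR, 1 did in DESeq2 and in limma without the trend, and 2 (*TpnCI* and *TpnCIIIb*) had an unadjusted p under 0.05 in limma. Their median log2 fold change was 0.07, with 3 below and 4 above 0. *TpnCI*, a calcium-binding troponin C, was lower in every treated library, at 1488, 1636 and 1883 normalised counts in Halofuginone 2, 3 and 4, against 1914, 2574 and 2286 in Control 1, 2 and 3. At −0.43 ± 0.15 on the log2 scale (SE), *TpnCI* had an adjusted p of 0.136 in limma. *TpnT*, the tropomyosin-binding troponin, was at 0.19 ± 0.35 (SE, adjusted p = 0.794 by limma), and its direction changed with the replicate block (−0.37), without Halofuginone 4 (−0.08) and without Control 1 (−0.10). *TpnCIIIb*, with 12.9 to 21.5 normalised counts in treated and 37.3 to 51.3 in control libraries, was that gene (adjusted p = 0.0197 in DESeq2 and 0.0487 in limma without the trend, against 0.0590 in limma with it).

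Of 8 fat body symbols 6 were found, with summed levels of 1055 to 1302 in halofuginone libraries and 996 to 1469 in controls, and none of them passed the adjusted p in limma, DESeq2 or edgeR (1, *Tsf1*, had an unadjusted limma p under 0.05). Their median log2 fold change was −0.52, with 5 of the 6 below 0 and *Tsf1* above it. *Tsf1* was higher in every treated library. Without it, a sum formed after the values were seen, the other 5 came to 721, 453 and 477 in Halofuginone 2, 3 and 4, against 735, 973 and 808 in Control 1, 2 and 3. Every treated library was lower in that sum, but only 1 of the 5 genes was by itself lower in every treated library. The most abundant fat body genes were *Tsf1* (transferrin), with 578 to 818 normalised counts in halofuginone libraries and 189 to 496 in controls, and *HEX70b* (a hexamerin), with 159 to 283 in halofuginone libraries and 265 to 395 in controls. The vitellogenin gene *Vg*, the defining fat body marker, had 2.58 to 28.0 normalised counts in halofuginone libraries and 6.39 to 102 in controls. The single hemocyte symbol found, *PPO* (prophenoloxidase), had 56.1 to 71.3 in halofuginone libraries and 63.1 to 75.9 in controls. The 4 neuronal and enteroendocrine genes summed to 687 to 1150 in halofuginone libraries and 800 to 1007 in controls, with *NPF* (neuropeptide F) and *brp* (the synaptic protein bruchpilot) the most abundant, and 0 passed the adjusted p or an unadjusted p under 0.05 in limma, DESeq2 or edgeR. Of 6 symbols searched as enterocyte markers 3 were found, all α-glucosidase genes, and whether each marks enterocytes was not tested. Their summed levels were 985576 to 1091624 normalised counts in halofuginone libraries and 1175532 to 1682369 in controls. These ranges did not overlap (exact two-sided permutation test, p = 0.1, the smallest that 3 against 3 allow). *Hbg2* was abundant in every library and overlapped, with 598976 to 678642 normalised counts in halofuginone libraries and 546506 to 935502 in controls. *AGLU2* (synonym *Hbg1*) did not overlap, with 463341, 412524 and 386002 in Halofuginone 2, 3 and 4, against 627783, 752645 and 745032 in Control 1, 2 and 3. It stood at −0.75 ± 0.41 on the log2 scale (SE, adjusted p = 0.322 by limma), while DESeq2 gave it an adjusted p of 2.23e-05. That SE comes with the variance trend and is wider than the spread between bees, whose within-group SD was 0.14 for *AGLU2*. In limma without the trend the SE was 0.14 (adjusted p = 0.0568). *Hbg3*, for which expression in enterocytes was not shown here, had 544, 458 and 598 in Halofuginone 2, 3 and 4, against 1244, 1706 and 1834 in Control 1, 2 and 3. It was lower in every treated library, standing at −1.57 ± 0.18 on the log2 scale (SE, adjusted p = 0.00856 by limma), but the call was lost without Control 3 (limma adjusted p = 0.0528), with the replicate block (limma adjusted p = 0.0587) and with the block by deposited table (limma adjusted p = 0.0568). The hypopharyngeal gland symbols searched, 5 royal jelly protein genes, were not among the genes analysed here. The part of any of these cell types in the values of *Arp1*, *Nedd9* and *Calpb* was not tested.

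The neighbourhood of *Arp1*, *Nedd9* and *Calpb* was examined in a gene table of another assembly (Amel_HAv3.1) than that used for the reads. The 3 genes are not neighbours of one another there. Of the 8 genes next to or overlapping them, 7 had values, and none of these passed the adjusted p in limma or edgeR. None passed it in DESeq2 either, which gave no p-value for LOC107964776. In limma 1 (LOC726756) had an unadjusted p under 0.05. Their median log2 fold change was 0.03. LOC552568, next to *Arp1*, stood at 0.03 ± 0.12 on the log2 scale (SE, adjusted p = 0.920 by limma). On the other side of *Arp1*, the lncRNA LOC107964776 had 24.8 to 29.2 normalised counts in halofuginone libraries, against 410 in Control 1, the library with the most *Arp1*, and 37.5 and 26.7 in Control 2 and 3. It stood at −1.47 ± 0.95 on the log2 scale (SE, adjusted p = 0.394 by limma), and at −0.25 without Control 1. LOC726756, next to *Nedd9*, was higher in every treated library, standing at 0.33 ± 0.10 (SE, adjusted p = 0.109 by limma). The microRNA Mir3766, which overlaps *Nedd9* in that table, was not among the genes analysed here.

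The lncRNA LOC100578839 overlaps the span of *Calpb*, judged by the start and end of each gene, and shared exons were not examined. The sources used here do not say that strand was used in counting. Whether reads of one gene of the pair were counted for the other is therefore not known. LOC100578839 had 1377, 2889 and 1116 normalised counts in Halofuginone 2, 3 and 4, against 1292, 1177 and 1325 in Control 1, 2 and 3. Halofuginone 3 was high in it and also had the most *Calpb* of the treated libraries. It was at 0.38 ± 0.33 on the log2 scale (SE, adjusted p = 0.530 by limma), and −0.03 without Halofuginone 3. Its part in the *Calpb* counts was not tested. In the same table *Arp1* has 2 annotated transcripts, *Nedd9* 2 and *Calpb* 10, which the deposited values sum into 1 value a gene, so a change of isoform could not be seen.

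The size of the fall was recomputed under 17 other settings. Its direction was fixed by the rule that chose the genes wherever a library was left out. *Arp1* ranged from −1.17 to −0.87, *Nedd9* from −1.08 to −0.86 and *Calpb* from −1.32 to −0.97 on the log2 scale, each staying within 1 within-group SD of its value. Leaving out Control 1 gave the smallest fall for *Arp1* (−0.87), and leaving out Halofuginone 4 the largest (−1.17). For *Calpb* the largest fall came without Control 3 (−1.32) and the smallest with the replicate number as a block (−0.97), a fit that in effect drops Control 1 and Halofuginone 4. Library-total scaling made all 3 falls smaller (−0.92 for *Arp1*, −0.87 for *Nedd9* and −1.07 for *Calpb*). An order of the 3 genes by size was not stable, since *Nedd9* had a larger fall than *Arp1* without Halofuginone 2, without Halofuginone 3 and without Control 1, and *Arp1* a larger fall than *Calpb* without Halofuginone 4 and with the block.

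**Figure D5:**
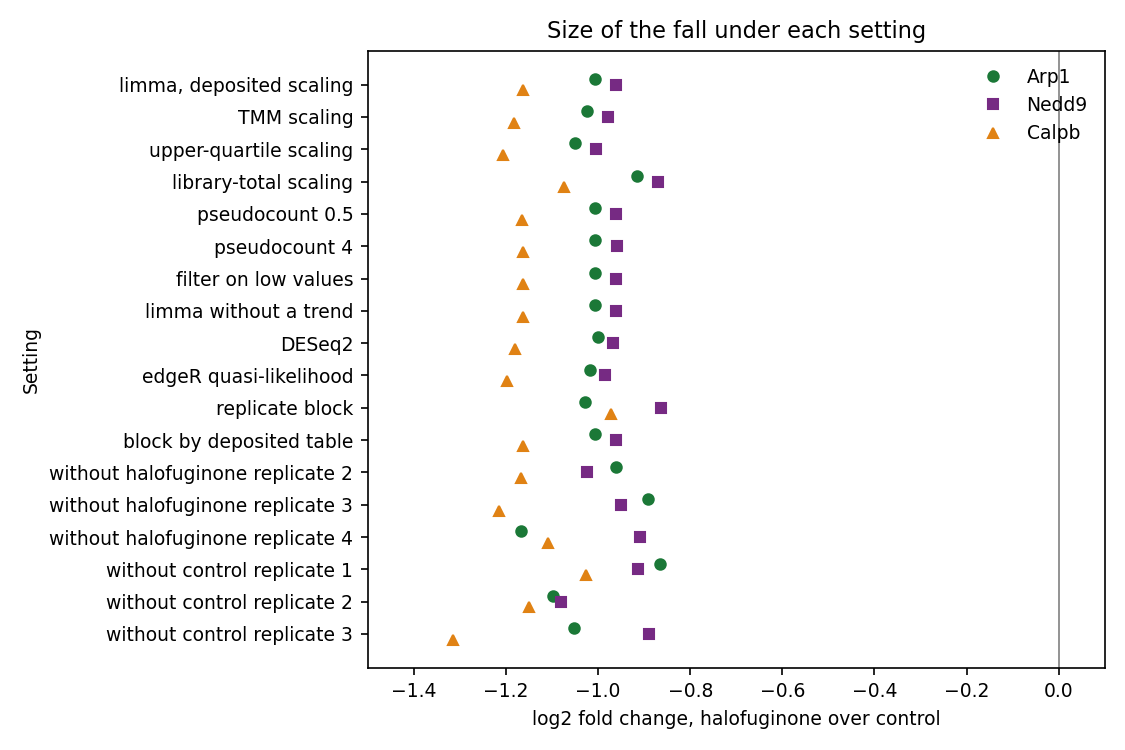
Log2 fold change of *Arp1*, *Nedd9* and *Calpb* (horizontal axis) under the fit reported here and 17 other settings, one setting a row. All values lie left of 0, between −1.32 and −0.86, and the genes change places between settings. For the settings that leave out a library, the rule that chose the genes fixes the side of 0.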

How the data were processed

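Midgut RNA of 6 bees was poly(A)-selected and sequenced, and 3 deposited tables hold 1 halofuginone and 1 control library each, grouped by their GEO titles. The submitters' processing notes name Trimmomatic 0.36, STAR, Subread and DESeq2 without their roles. Per the methods, reads were mapped to an earlier NCBI assembly of the bee genome than that of the gene table used here, and gene hits were counted, with strand use not given in the sources used here. The deposited values are a signal, namely gene counts that the authors divided by a factor per library, which equals the median-of-ratios size factor of the 6 libraries. Dividing by the value of 1 read gave whole reads (within 0.01) for 100% of values, and 23305398 to 26278866 reads a library. The tables hold no fold changes or p-values.

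*Arp1*, *Nedd9* and *Calpb*, the gene lists and the tests were chosen with earlier results of these data known. The genes named are these 3, the 3 nearest profiles of each among genes with a mean of at least 100 normalised counts, the 2 most abundant genes of each list with those past the adjusted p, and neighbouring genes. *ROCK2*, *rtGEF*, *uzip*, *Nrx-1*, *TpnCIIIb* and *Vg* fall outside that rule and were named after their values were seen. Since the values are not counts, limma 3.58.1 with a trend (R 4.3.3) was fitted to log2(normalised count + 1) of all 10041 genes, halofuginone over control, with no covariate and Benjamini-Hochberg adjustment over all genes. Fold changes on this scale understate those of low genes. DESeq2 1.42.0 and edgeR 4.0.16 (quasi-likelihood) on the recovered reads, other scalings, pseudocounts of 0.5 and 4, a filter of 10 normalised counts in 3 libraries, 2 blocks and leaving out each library were alternatives. The limma fit was tested on simulated data with known changes. P-values rest on the spread between single bees, and limma draws that spread toward its trend on mean level. Sequence comparisons of proteins and promoters were not run, for want of sequence tables. List symbols were matched to the symbols in the files and, as an addition made after the data were seen, to the synonyms of the gene table. One further symbol was left out of the lists and is not reported here.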

Additional observations from a re-analysis of the deposited data

How the results depend on the processing

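The log2 fold changes of *Arp1*, *Nedd9* and *Calpb* kept their direction and stayed within 1 within-group SD under all 17 alternatives. The rule that chose the genes fixed that direction when a library was left out, with a block, with another pseudocount or in DESeq2, which uses the same size factors. Under the 3 other scalings the groups did not overlap either, so the direction there says little more. The filter on low values, limma without the trend and the block by deposited table leave these fold changes unchanged by design. Counts over all genes depended more on the processing. Genes called lower (limma adjusted p under 0.05 and log2 fold change under −1) numbered 70, against 137 with DESeq2, 0 with the replicate block, 1 with a block by deposited table, and 12 to 83 when a library was left out. The lowest counts came without Control 3 (12) and without Control 2 (14), followed by Halofuginone 4 (43) and Halofuginone 2 (44). Genes called higher numbered 168, against 3 with the replicate block, 6 with the block by table, and 35 to 194 when a library was left out. Genes lower in every halofuginone library numbered 1474, against 887 under library-total scaling, and 1802 to 2302 with a library left out, where fewer libraries need to be separated. The cause of the other changes was not tested.

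The replicate block put *Arp1* at −1.03, *Nedd9* at −0.86 and *Calpb* at −0.97. Only the numbers 2 and 3 are shared by both groups, and over 7477 genes the correlation of same-numbered deviations was 0.115 for number 2 and −0.0823 for number 3, so the numbers were not taken to pair the bees. The median log2 fold change of the 7 troponins was 0.07, and −0.49 with the replicate block, while that of the 11 cytoskeleton and adhesion symbols was 0.08 and stayed above 0, between 0.01 and 0.17. Matching list symbols through synonyms, chosen after seeing the data, added *PRF* and *AGLU2*. The median of all genes moved by under 0.1 throughout. Depth does not limit the 3 genes, whereas 3 bees a group limit every comparison. The planned comparison of protein families and of promoter motifs was not run.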
